A study of Mus musculus with 8 samples.

Results

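Genes of glycolysis, of the pentose phosphate pathway and of the entry of pyruvate into the citrate cycle were followed in sorted bone marrow cells of adult C57Bl6 mice. The set was a fixed list of 41 genes, taken by enzyme step and isoform. Of these, 36 are named in the probe annotation used here, among 24011 named genes, and are called measured below. Gpi1, Pfkfb1, Gapdh, Eno1 and G6pdx were not analysed here. Counts of measured members thus reflect which rows were deposited and named in that annotation, and not what the array can measure. Total RNA of 4 Lin+ samples, cells that carry surface markers of mature blood lineages, and of 4 HSC-enriched samples, sorted for haematopoietic stem cells (HSCs), was amplified and read on Affymetrix MouseGene ST arrays of 1 colour. The sample labels give the HSC-enriched gate as LSKCD105+CD48neg (LSK stands for lineage-negative, Sca-1-positive and Kit-positive), whereas the series' design text has CD150 in the place of CD105. The labels name no transgene and no treatment for either group. Lin+ is a mixture of several mature lineages. The labels do not say whether animals were pooled or whether each sample had its own animal. All p-values thus rest on the scatter among these 8 samples alone, and that scatter may be technical.

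Glycolysis splits glucose into pyruvate in the cytosol and yields ATP without oxygen. Pyruvate is then either reduced to lactate by lactate dehydrogenase and exported, or oxidised to acetyl-CoA by the pyruvate dehydrogenase complex in mitochondria, which pyruvate dehydrogenase kinases switch off by phosphorylation. The pentose phosphate pathway branches off after the first glycolytic step and makes NADPH and ribose for nucleotides. Adult HSCs are known for a low mitochondrial activity and a reliance on glycolysis, and neutrophils, abundant in marrow, are known for high glycolytic and pentose phosphate flux.

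The values are log2 levels, and all differences are HSC-enriched minus Lin+ means. A gene was called when limma's test, adjusted by Benjamini-Hochberg over all 24011 genes, gave an adjusted p under 0.05. Of the 36 measured members, 13 were higher in HSC-enriched cells, 10 were lower and 13 were not called. In all, 63.9% of members were called, against 27.8% of all genes, with 15.5% of all genes higher and 12.4% lower. The groups did not overlap for 22 members, or 61.1%, against 28.9% of all genes. The median difference of the members was 0.03, close to the 0.02 of all genes, and the median of their absolute differences was 0.69 against 0.20. Members lower in HSC-enriched cells reached -2.73 (Slc16a3), and 3 of them differed at least 4-fold. Rises reached 1.40 (Pfkm). At least 2-fold differences were found for 7 higher and 8 lower members, against 4.8% and 6.08% of all genes. A group mean at or under 5.09, the 95th percentile of 1091 olfactory receptor genes, is called near background below. This held for both groups of Aldoa and Pgam1 and for the Lin+ mean of Pfkm, Eno2 and Pdk4. The rises of these 3 genes may be understated, so the sizes of rises and falls were not ranked against each other. The 24011 genes behind the shares of all genes, here and below, were not filtered by level. They include the olfactory receptor genes, mostly near background. Members were not set against genes of like level, so whether their higher shares go with level was not tested.

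**Figure D1:**
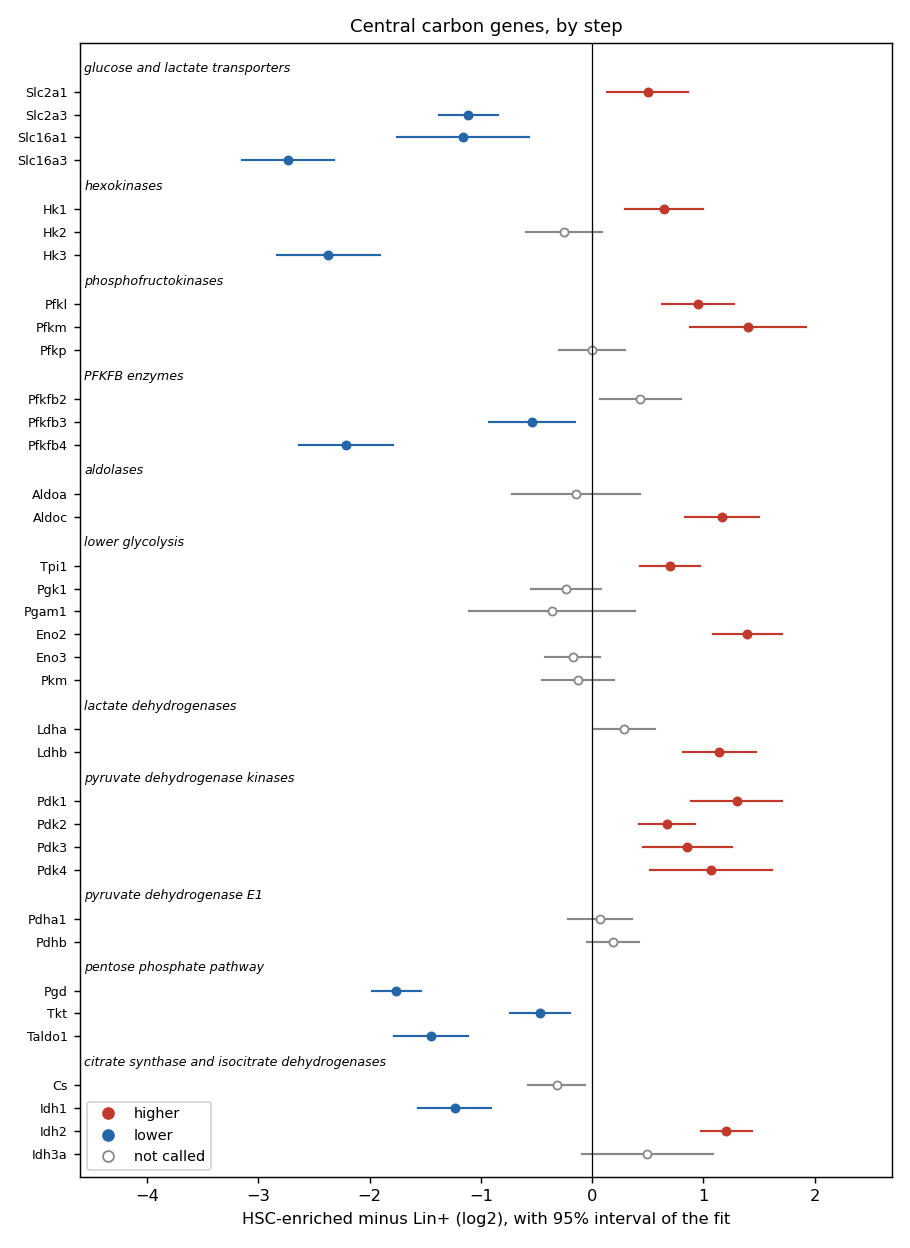
Difference between HSC-enriched and Lin+ cells (log2, x axis) for the 36 measured members, grouped by enzyme step, with the 95% interval of limma's fit. Filled points were called (adjusted p under 0.05), 13 higher in red and 10 lower in blue, and the 4 pyruvate dehydrogenase kinases lie to the right of 0 while the 3 pentose phosphate genes lie to the left.

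The sort could be read from the arrays. Of 12 HSC marker genes 11 were measured and all 11 were higher in HSC-enriched cells, with a mean level of 8.21 to 8.31 on HSC-enriched and 5.37 to 5.58 on Lin+ arrays. Kit, Eng (CD105) and Slamf1 (CD150) were higher and Cd48 lower, while Ly6a (Sca-1) was not analysed here. All 12 measured erythroid, 10 B cell, 8 monocyte and 9 T and NK cell markers fell, as did 18 of 19 neutrophil markers. The neutrophil markers averaged 6.35, 6.33, 8.43 and 8.29 on HSC-enriched replicates 1 to 4 against 10.85 to 11.24 on Lin+ arrays. The B cell markers averaged 6.27 on HSC-enriched replicate 3 against 4.78 to 4.90 on the other HSC-enriched arrays and 9.49 to 10.16 on Lin+ arrays. Erythroid markers averaged 5.26 to 6.02 on HSC-enriched against 8.32 to 9.05 on Lin+ arrays, and monocyte markers 5.19 to 5.86 against 8.42 to 9.0. T and NK cell markers averaged 4.53 to 4.92 against 7.90 to 8.18. The HSC-enriched mean was near background for 4 of the erythroid, 6 of the B cell, 5 of the monocyte and 8 of the T and NK cell markers. Megakaryocyte markers went the other way, 4 of 7 being higher and 0 lower, with means of 6.54 to 6.89 against 5.52 to 6.19. Of 8 endothelial markers 2 were higher and 1 lower. The part of this difference in lineage makeup in the results on the members was not tested. In a fit without HSC-enriched replicates 3 and 4, 12 members were higher and 8 lower, the calls of Slc2a1, Pfkfb3 and Tkt being lost.

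Promoter sequence is shown for some of the called members whose upstream stretch holds the letters ACGTG. These letters are the core of the element bound by hypoxia-inducible factors, which are known to act on glycolytic genes. RefSeq promoters (GRCm38.p6) were found for 34 of the 36 members, all but Slc2a3 and Idh3a, and 50 in all because some genes have several starts, and the 250 bases before each start were searched on both strands for ACGTG and for CACGTG. The latter is an E-box, as bound by Myc and USF proteins, and holds ACGTG. Among the 50 member promoters 20 held ACGTG, against 16.6% of 32851 promoters, and 12.0% held CACGTG, against 6.02%. The median GC content was 60.4% in member promoters and 52.4% in all. By call, ACGTG was present in 5 of 20 promoters of members that were higher, 5 of 12 of those that were lower and 10 of 18 of those not called, so its share was highest among members without a called difference. The 60-base windows below, 5′ to 3′ on the strand of the gene, come from the called members with a match before the first start of the gene. ACGTG was found for 4 higher and 4 lower members, and this rule left out Slc16a3, Hk3 and Pfkfb3, all lower. Capitals mark ACGTG on either strand, and where CACGTG stands in capitals the letters match on both. Slc2a1 (chr4:119108681-119108740, plus strand), Pfkm (chr15:98092426-98092485, plus), Pdk2 (chr11:95041465-95041524, minus) and Pdk3 (chrX:93832172-93832231, minus) were higher in HSC-enriched cells, and Slc16a1 (chr3:104638437-104638496, plus) was lower.
Slc2a1: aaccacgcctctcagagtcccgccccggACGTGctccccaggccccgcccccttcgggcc
Pfkm: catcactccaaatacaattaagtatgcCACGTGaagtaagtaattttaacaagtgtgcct
Pdk2: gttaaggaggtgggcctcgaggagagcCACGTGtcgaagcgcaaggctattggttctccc
Pdk3: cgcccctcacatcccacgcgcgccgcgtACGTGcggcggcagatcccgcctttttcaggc
Slc16a1: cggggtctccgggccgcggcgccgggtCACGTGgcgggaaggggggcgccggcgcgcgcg
CACGTG stood in the windows of Pfkm, Pdk2 and Slc16a1, so the E-box letters occurred before members of both directions. For the kinase genes Pdk1 and Pdk4, also higher, no ACGTG was found in the bases searched. A match is a description of letters and not of a bound site.

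Among the members, the largest single fall was in the transport of glucose and lactate. Slc16a3 (Entrez gene 80879), which encodes the lactate exporter MCT4, stood at 8.07, 8.79, 8.95 and 8.64 on Lin+ replicates 1 to 4 and at 5.76, 5.68, 6.0 and 6.07 on HSC-enriched replicates 1 to 4. All HSC-enriched arrays lay far below the lowest Lin+ array, and the difference was -2.73 ± 0.19 (standard error of limma's fit), 6.64-fold lower in HSC-enriched cells (adjusted p = 2.8e-06). In bulk samples, fewer cells of a type and less RNA per cell cannot be told apart. Without HSC-enriched replicates 3 and 4, where neutrophil markers were higher, the difference was -2.89. Slc16a1 (20501), which encodes MCT1, a carrier of lactate and pyruvate in either direction, was 7.99, 8.37, 7.87 and 8.66 on Lin+ and 7.05, 7.65, 7.20 and 6.34 on HSC-enriched arrays. HSC-enriched replicate 4 was the lowest and replicate 2 the highest of its group, without overlap with Lin+, and the difference was -1.16 ± 0.27 (2.24-fold, adjusted p = 0.0076).

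The glucose transporters went in opposite directions. Slc2a3 (20527), which encodes GLUT3, a transporter of high affinity, was 8.62, 9.01, 9.08 and 8.95 on Lin+ arrays and 7.86, 7.70, 7.81 and 7.84 on HSC-enriched arrays. The HSC-enriched arrays were tight and all below Lin+, 2.16-fold lower (adjusted p = 5.4e-05). Slc2a1 (20525), the widely expressed GLUT1, was 8.22, 8.71, 8.82 and 8.15 on Lin+ and 8.86, 8.93, 8.96 and 9.16 on HSC-enriched arrays. Lin+ replicate 3 and HSC-enriched replicate 1 nearly met, and the rise of 0.50 ± 0.16 passed only narrowly (adjusted p = 0.045). It was lost without any 1 of the HSC-enriched arrays or without Lin+ replicate 1 or 4 (adjusted p = 0.061 to 0.12), without HSC-enriched replicates 3 and 4 together (0.23), and with each array centred on its median (0.057).

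The hexokinase genes, whose enzymes phosphorylate glucose, differed by isoform. Hk3 (212032), known from myeloid cells, was 7.16, 7.79, 7.92 and 7.52 on Lin+ and 4.82, 5.25, 5.69 and 5.15 on HSC-enriched arrays, without overlap and 5.17-fold lower (-2.37 ± 0.21, adjusted p = 1.4e-05). Within the HSC-enriched group replicate 3, with the higher B cell and neutrophil markers, was the highest for Hk3 and replicate 1 the lowest. Replicate 4, with a neutrophil marker mean of 8.29, was lower for Hk3 than replicate 2, with 6.33. A link between Hk3 and these markers was not tested. Without HSC-enriched replicates 3 and 4 the difference was -2.56. Hk1 (15275), the isoform found in most tissues and bound to mitochondria, was 6.22, 6.74, 6.90 and 6.69 on Lin+ and 7.42, 7.47, 7.14 and 7.10 on HSC-enriched arrays, 1.57-fold higher without overlap (adjusted p = 0.011). Hk2 (15277), the inducible isoform, overlapped between the groups, at 6.89 to 7.44 on Lin+ and 6.73 to 7.17 on HSC-enriched arrays, with a difference of -0.25 and a 95% interval of -0.59 to 0.09.

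At phosphofructokinase, the step that commits sugar to glycolysis, 2 of 3 subunit genes rose, against 15.5% of all genes. Pfkl (18641, liver type) was 6.49, 6.46, 6.91 and 6.22 on Lin+ and 7.51, 7.59, 7.37 and 7.42 on HSC-enriched arrays, 1.94-fold higher (adjusted p = 5.8e-04). Pfkm (18642, muscle type) was 4.75, 4.76, 3.95 and 4.95 on Lin+ arrays, near background, and 6.29, 6.24, 5.55 and 5.92 on HSC-enriched arrays. Lin+ replicate 3 was the lowest and the groups did not overlap; the difference was 1.40 ± 0.23 (2.64-fold, adjusted p = 0.0011), with its size resting on a Lin+ mean near background. Pfkp (56421, platelet type) had a difference of -0.0033 with a 95% interval of -0.30 to 0.29.

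The PFKFB enzymes make and break fructose 2,6-bisphosphate, an activator of phosphofructokinase. Pfkfb4 (270198) was 7.20, 7.44, 8.09 and 7.94 on Lin+ and 5.28, 5.48, 5.63 and 5.45 on HSC-enriched arrays, the third of the members that fell at least 4-fold, at 4.63-fold (adjusted p = 1.2e-05). Its difference without HSC-enriched replicates 3 and 4 was -2.29. Pfkfb3 (170768), the isoform with the strongest kinase activity, was 7.33, 7.61, 7.85 and 7.57 on Lin+ and 7.12, 7.17, 7.34 and 6.58 on HSC-enriched arrays. Lin+ replicate 1 and HSC-enriched replicate 3 overlapped, HSC-enriched replicate 4 was the lowest, and the fall of 0.54 passed narrowly (adjusted p = 0.041). The call was lost without HSC-enriched replicate 1, 2 or 4 or Lin+ replicate 2, 3 or 4 (adjusted p = 0.060 to 0.11). Pfkfb2 (18640) was 5.98 to 6.39 on Lin+ and 6.35 to 6.98 on HSC-enriched arrays and was not called (0.44, adjusted p = 0.075), though it was without HSC-enriched replicate 3 (0.53, adjusted p = 0.041).

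**Figure D2:**
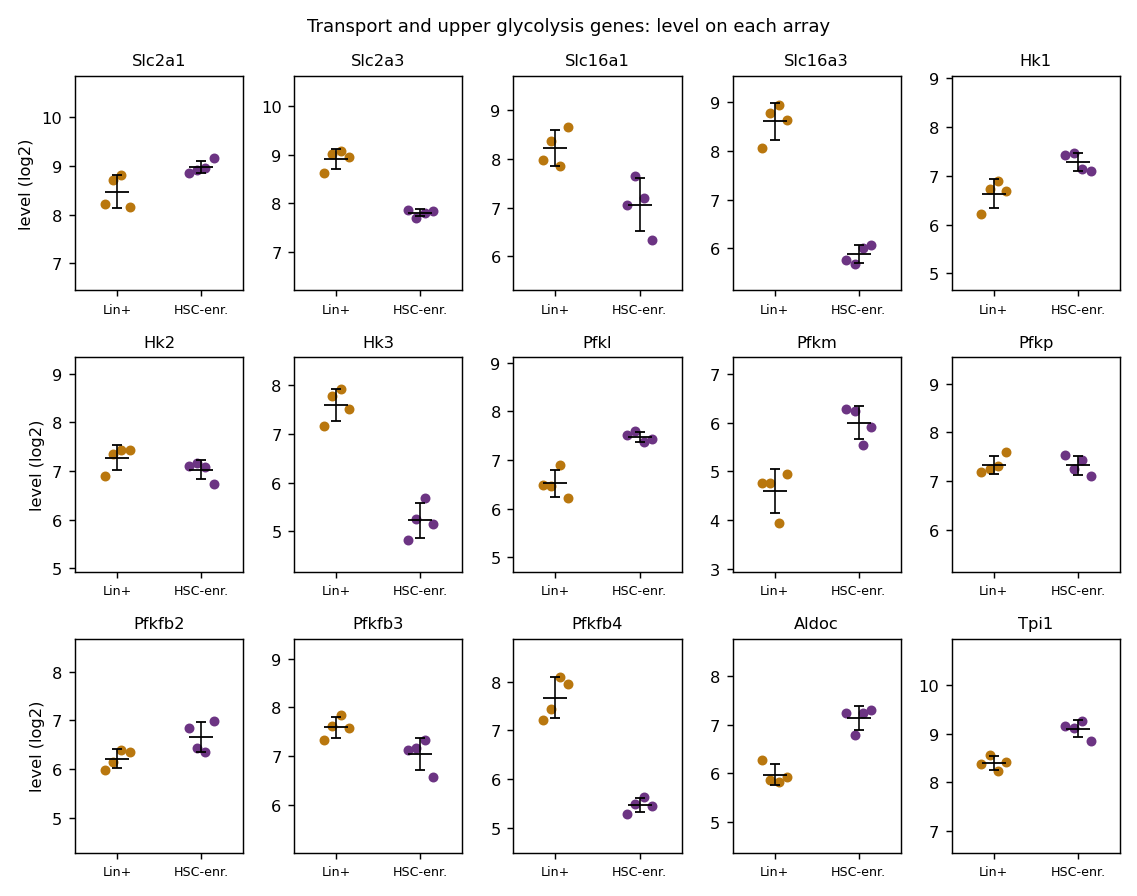
Level (log2, y axis, each panel spanning the same range) of 15 genes of transport and upper glycolysis on each of 4 Lin+ arrays (orange) and 4 HSC-enriched arrays (purple, "HSC-enr."), with the mean and SD in black. Slc16a3, Hk3 and Pfkfb4 show the widest gaps, with HSC-enriched arrays lower, whereas Pfkp and Hk2 overlap.

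Among the later steps of glycolysis most measured genes overlapped between the groups. Tpi1 (21991), triose phosphate isomerase, was 8.38, 8.56, 8.23 and 8.42 on Lin+ and 9.16, 9.13, 9.27 and 8.85 on HSC-enriched arrays, a 1.63-fold rise without overlap (adjusted p = 0.0013). Pgk1, which encodes the first ATP-forming enzyme of the pathway, was 6.99 to 7.31 on Lin+ and 6.55 to 7.11 on HSC-enriched arrays and was not called (-0.23, 95% interval -0.55 to 0.08). Pkm (18746), pyruvate kinase of most tissues, was 10.36 to 11.05 on Lin+ and 10.44 to 10.54 on HSC-enriched arrays. Its difference was -0.12 with an interval of -0.45 to 0.20, and the single probe set does not separate its splice forms. Eno3, the muscle enolase, was 6.66 to 6.96 on Lin+ and 6.54 to 6.81 on HSC-enriched arrays (-0.18, interval -0.42 to 0.07).

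Aldoc and Eno2, isoforms known from the nervous system, rose. Aldoc (11676), aldolase C, was 6.28, 5.86, 5.82 and 5.93 on Lin+ and 7.23, 6.78, 7.24 and 7.30 on HSC-enriched arrays, 2.25-fold higher without overlap (adjusted p = 1.9e-04), HSC-enriched replicate 2 being the lowest of its group. Eno2 (13807), the neuronal enolase, was 4.54, 4.11, 4.26 and 4.02 on Lin+ arrays, all near background, and 5.62, 5.53, 5.50 and 5.87 on HSC-enriched arrays. The HSC-enriched arrays were all above the background guide, and the fitted difference was 1.40 ± 0.14 (adjusted p = 3.3e-05), a size that rests on Lin+ levels near background. The partner isoform Aldoa was 3.26 to 4.34 on Lin+ and 3.17 to 4.19 on HSC-enriched arrays, and the mutase gene Pgam1 was 3.13 to 4.93 and 3.21 to 3.87. Both were near background in both groups, so their differences (-0.15 and -0.36, not called) give no reading of the 2 genes. Copies of near-identical sequence are known for both, and how the probe sets treated them is not given in the sources used here.

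At lactate dehydrogenase the B subunit rose. Ldhb (16832), known from oxidative tissues, was 7.54, 7.86, 7.70 and 7.37 on Lin+ and 9.0, 8.78, 8.45 and 8.80 on HSC-enriched arrays, 2.21-fold higher without overlap (adjusted p = 2.0e-04). Ldha (16828), the subunit that favours lactate formation, was 9.47, 9.41, 9.83 and 9.78 on Lin+ and 9.86, 10.05, 9.93 and 9.80 on HSC-enriched arrays. These groups overlapped by Lin+ replicate 3 and HSC-enriched replicate 4, and the difference of 0.29 was not called (adjusted p = 0.13), though it was after quantile normalization (0.39, adjusted p = 0.032).

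All 4 pyruvate dehydrogenase kinase genes were higher in HSC-enriched cells, and none of the 4 overlapped between the groups. Of all genes, 15.5% were higher and 28.9% did not overlap. Pdk1 (228026), a target of hypoxia-inducible factors, was 6.41, 6.68, 6.70 and 6.77 on Lin+ and 8.0, 7.79, 8.45 and 7.52 on HSC-enriched arrays, a difference of 1.30 ± 0.18 (2.46-fold, adjusted p = 3.7e-04). HSC-enriched replicate 3 was the highest and replicate 4 the lowest of a wide group. Pdk2 (18604), found in most tissues, was 6.89, 7.04, 6.98 and 6.74 and 7.80, 7.54, 7.49 and 7.50 on the same arrays, a 1.60-fold rise (adjusted p = 0.0012) with HSC-enriched replicate 1 above the others. Pdk3 (236900) was 7.51, 8.22, 7.98 and 8.35 and 8.94, 8.97, 8.59 and 8.99, 1.81-fold higher (adjusted p = 0.0047), with Lin+ replicate 1 and HSC-enriched replicate 3 the lowest of their groups.

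Pdk4 (27273), a kinase induced by fasting and fatty acids, was 4.36, 4.45, 4.46 and 4.09 on Lin+ arrays, near background, and 5.27, 5.28, 6.21 and 4.86 on HSC-enriched arrays. HSC-enriched replicate 3 stood above the other arrays of its group, and replicate 4 lay under the background guide. The fitted rise, also from Lin+ levels near background, was 1.07 ± 0.25 (adjusted p = 0.0078) and 0.93 without HSC-enriched replicates 3 and 4. Pdha1 and Pdhb, which encode the subunits of pyruvate dehydrogenase E1, the kinases' substrate, were not called, with differences of 0.07 (95% interval -0.22 to 0.36) and 0.19 (-0.05 to 0.42). Pdha1 was 8.03 to 8.25 on Lin+ and 8.05 to 8.56 on HSC-enriched arrays, and Pdhb 8.47 to 8.68 and 8.58 to 8.87.

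The 3 measured members of the pentose phosphate pathway were all lower in HSC-enriched cells, against 12.4% of all genes. G6pdx, also listed for this pathway, was not analysed here, so its direction is not known. Pgd (110208), 6-phosphogluconate dehydrogenase, a source of NADPH, was 9.68, 9.88, 9.78 and 9.79 on Lin+ and 7.97, 8.14, 7.91 and 8.07 on HSC-enriched arrays. Both groups were tight and 3.39-fold apart (-1.76 ± 0.10, adjusted p = 8.5e-07), the lowest adjusted p among the members. Taldo1 (21351), transaldolase of the non-oxidative branch, was 9.23, 9.96, 9.66 and 9.73 and 8.34, 8.19, 8.17 and 8.10, 2.72-fold lower without overlap (adjusted p = 4.4e-05). Tkt (21881), transketolase of the same branch, was 10.26, 10.41, 10.73 and 10.31 and 9.94, 9.98, 9.86 and 10.06. Its groups lay close together without overlap, the fall was 0.47 (adjusted p = 0.015), and the call was lost without HSC-enriched replicates 3 and 4 (-0.47, adjusted p = 0.073). The differences of Pgd and Taldo1 without these arrays were -1.73 and -1.38. Neutrophil markers averaged 6.33 to 8.43 on HSC-enriched and 10.85 to 11.24 on Lin+ arrays beside these falls, 3 of the 19 having an HSC-enriched mean near background, and their part in them was not tested.

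The genes of the NADP-dependent isocitrate dehydrogenases moved in opposite directions. Idh1 (15926), cytosolic, was 8.69, 8.65, 9.02 and 8.89 on Lin+ and 7.83, 7.34, 7.37 and 7.77 on HSC-enriched arrays, 2.36-fold lower (adjusted p = 1.2e-04). Idh2 (269951), mitochondrial, was 8.39, 8.32, 8.11 and 8.35 and 9.56, 9.52, 9.37 and 9.56, 2.31-fold higher (adjusted p = 1.2e-05). Both moved without overlap and by nearly the same size in opposite directions. Idh3a, a subunit of the NAD-dependent enzyme of the citrate cycle, was 5.93 to 6.72 on Lin+ and 6.26 to 7.51 on HSC-enriched arrays, a wide spread that left 0.50 not called (95% interval -0.09 to 1.09). Cs, citrate synthase, was 8.90 to 9.16 and 8.55 to 8.90 and was not called (-0.32, adjusted p = 0.066), though it was without HSC-enriched replicate 2 (-0.39, adjusted p = 0.037).

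**Figure D3:**
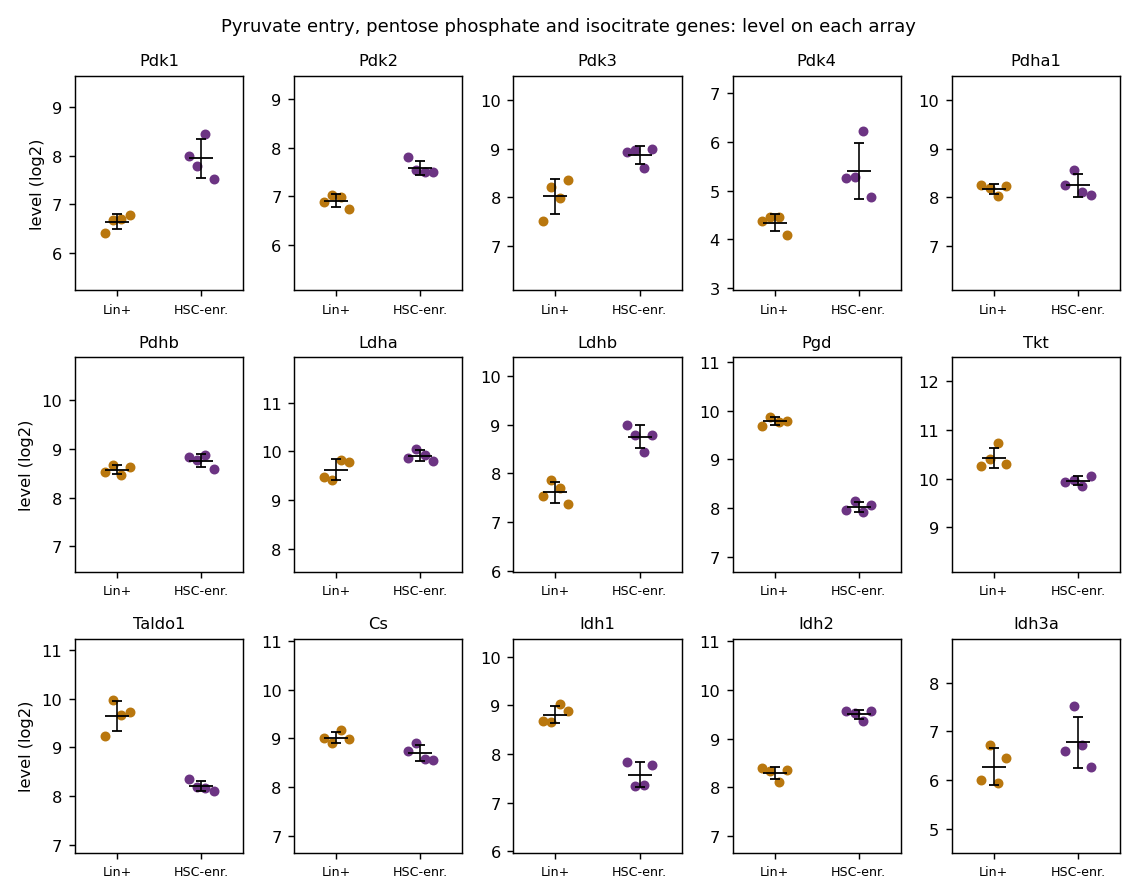
Level (log2, y axis, each panel spanning the same range) of 15 genes of pyruvate entry, the pentose phosphate pathway and citrate formation on each of 4 Lin+ arrays (orange) and 4 HSC-enriched arrays (purple, "HSC-enr."), with the mean and SD in black. Pgd and Idh2 show tight groups far apart, and Pdk4 has 1 HSC-enriched array at 6.21 above the other 3.

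Whether isoforms of 1 family changed unequally was tested within each array, by the log2 ratio of 1 isoform to another. Of 26 pairs, 21 had both isoforms measured. The ratio differed without overlap between the groups for 13 pairs, each with p = 0.0286 in a two-sided exact permutation test over the 8 arrays, the smallest that 4 against 4 allows, and 0.0462 adjusted by Benjamini-Hochberg over the 21 pairs. The pairs are not independent, since isoforms recur in several of them, and their count was not set against other gene pairs. Such a ratio shows unequal change and not which isoform held still. Hexokinases gave the widest shift: the ratio of Hk1 to Hk3 was -0.94, -1.06, -1.02 and -0.83 on Lin+ and 2.61, 2.22, 1.45 and 1.95 on HSC-enriched arrays, a change of 3.02. The Idh1 to Idh2 ratio went from 0.52 ± 0.28 (SD, n = 4) to -1.93 ± 0.21, and the Slc2a1 to Slc2a3 ratio from -0.44 ± 0.25 to 1.18 ± 0.13. In these 3 pairs 1 isoform was called higher and the other lower.

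The other pairs that differed included isoforms that moved the same way. Slc16a1 and Slc16a3 both fell, and their ratio still rose by 1.57, so the 2 carriers fell unequally. The Pfkfb3 to Pfkfb4 ratio rose by 1.67 in the same manner, that of Pfkfb2 to Pfkfb4 by 2.65 and that of Pfkfb2 to Pfkfb3 by 0.97. Hk2 gained on Hk3 by 2.12, and Hk1 on Hk2 by 0.90. Eno2 gained on Eno3 by 1.57, Pfkm and Pfkl gained on Pfkp by 1.40 and 0.96, and Ldhb gained on Ldha, whose ratio to Ldhb fell by 0.86. The sizes for Eno2 and Pfkm rest on Lin+ levels near background. Among the 4 pyruvate dehydrogenase kinases the ratios overlapped between groups in 6 of 6 pairs, with changes of -0.39 (Pdk2 to Pdk4) to 0.63 (Pdk1 to Pdk2) and exact p-values of 0.0571 to 0.686 (adjusted 0.0799 to 0.686). An unequal change among the kinases was therefore not detected here. The ratios of Pfkl to Pfkm and of Aldoa to Aldoc also overlapped.

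**Figure D4:**
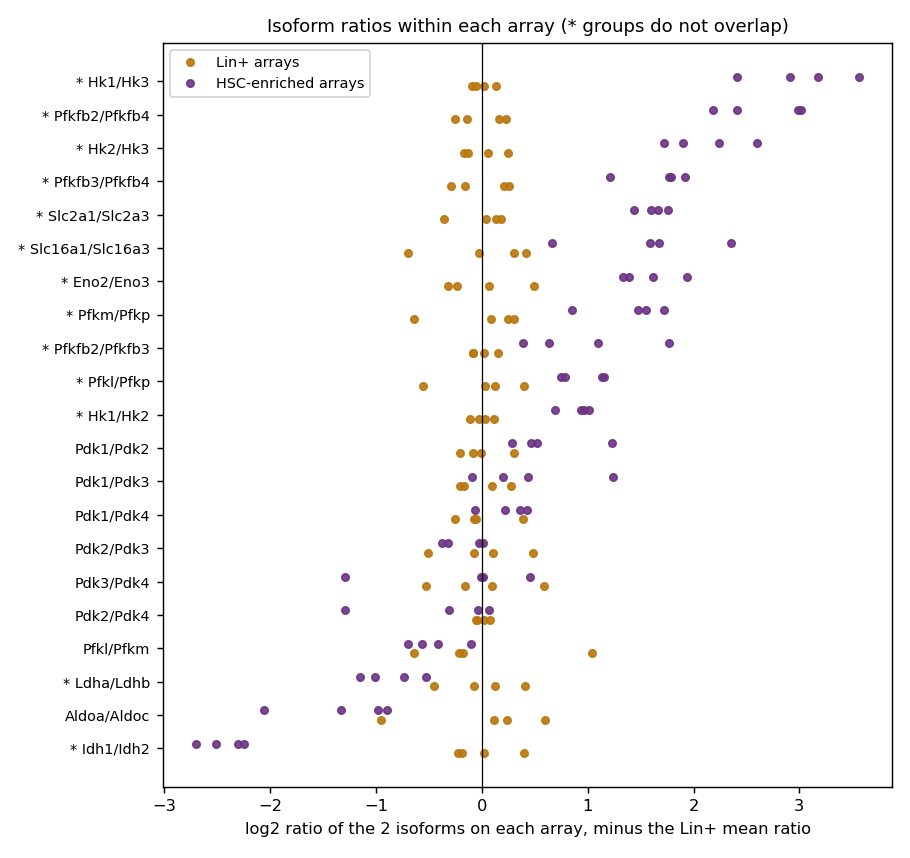
Log2 ratio of 2 isoforms on each array, shown relative to the Lin+ mean of that ratio (x axis), for 21 pairs of isoforms on 4 Lin+ (orange) and 4 HSC-enriched (purple) arrays. An asterisk marks the 13 pairs whose groups do not overlap, from Hk1/Hk3 with a change of 3.02 at the top to Idh1/Idh2 with -2.44 at the bottom.

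Of 83 measured genes of the same pathways outside the list, 12 were higher and 19 lower (37.3% called, against 27.8% of all genes, 15.5% higher and 12.4% lower), with a median difference of 0.01. Among other glycolytic isoforms and side steps 4 of 14 fell and 0 rose, a called share of 28.6%, close to the 27.8% of all genes. Adpgk, an ADP-dependent glucokinase, fell by 3.0 (adjusted p = 1.5e-06), from 10.03, 10.58, 10.66 and 10.33 to 7.23, 7.05, 7.67 and 7.67, further than any of the 36 members. Pklr, the pyruvate kinase of liver and red cells, fell by 1.66, and Pgam2 and Bpgm, which makes 2,3-bisphosphoglycerate in red cells, by 0.90 and 0.66. Minpp1 (0.23) was not called. Of 12 measured erythroid markers all fell beside Pklr and Bpgm, and their part in these falls was not tested. Of 8 genes of gluconeogenesis and pyruvate carboxylation only G6pc3, a glucose-6-phosphatase found outside the liver, was called, 2.28-fold higher (adjusted p = 3.9e-05), and Pck2 had a difference of 0.30. The called share of these 8 genes was 12.5%, under the 27.8% of all genes.

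Other carriers and pentose phosphate genes mostly fell where they were called. Of 14 other sugar and monocarboxylate carriers and their partners 1 rose and 4 fell. Their called share was 35.7%, against 27.8% of all genes, and 21.4% did not overlap between the groups, against 28.9%. Slc2a6 fell from 7.15, 7.54, 7.74 and 7.25 to 5.13, 5.15, 5.43 and 4.55 (5.12-fold, adjusted p = 1.0e-05), with its HSC-enriched mean near background. Emb, which encodes embigin, a partner of monocarboxylate carriers, fell by 0.97, and Slc16a6 and Slc2a4 by 0.67 and 0.57, while Slc2a10 rose by 0.47 with both group means near background. Bsg, which encodes basigin, the partner of MCT1 and MCT4, had a difference of 0.03. Of 10 further pentose phosphate genes 4 fell: Rpe (ribulose-phosphate epimerase, 2.33-fold), Pgls (6-phosphogluconolactonase, 1.57-fold), Rbks and Rpia. Prps1, which makes phosphoribosyl pyrophosphate, rose by 0.73, and Prps2 (-0.09) was not called. Of these 10 genes 50.0% were called, against 27.8% of all genes, and 50.0% did not overlap between the groups, against 28.9%.

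The rest of the pyruvate dehydrogenase complex and of the citrate cycle split. The phosphatase genes Pdp1 and Pdp2, which reverse the kinases' action, rose by 1.01 and 0.45 (adjusted p = 6.0e-05 and 0.043). The groups overlapped for Pdp2, and its call was lost in 9 alternatives, among them without HSC-enriched replicates 3 and 4 (0.28, adjusted p = 0.32). Pdhx fell by 0.35 and Dld (0.08) was not called. Of 20 further genes of the citrate cycle, malic enzymes and citrate export 5 rose and 3 fell. Suclg2, the GTP-forming succinyl-CoA synthetase subunit, was 7.81, 7.60, 7.45 and 7.97 on Lin+ and 9.68, 9.86, 9.48 and 9.30 on HSC-enriched arrays, 3.67-fold higher, and Slc25a1, the citrate carrier of mitochondria, rose by 1.30. Idh3b, Idh3g and Sdhc rose by 0.58, 0.44 and 0.41. Me2, a mitochondrial malic enzyme, fell by 1.0, Ogdh by 0.40 and Dlst by 0.39, and Mdh2 (-0.13) was not called.

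The 3 glycogen phosphorylase genes split by isoform. Pygl, the liver-type glycogen phosphorylase, fell 3.47-fold, while Pygm, the muscle type, rose 3.55-fold from a Lin+ mean near background, and Pygb, the brain type, rose by 0.56 (adjusted p = 9.0e-06, 6.6e-07 and 0.0049). On HSC-enriched replicates 1 to 4 Pygl was at 8.28, 8.35, 8.77 and 8.71, higher on replicates 3 and 4, as the neutrophil markers were. Gys1, which also fell, was at 6.14, 6.29, 6.56 and 5.95 on these arrays, without that order. The part of neutrophils in these levels was not tested. Gys1, glycogen synthase, fell by 1.36 and Ugp2 by 0.80, and Gyg (-0.16) was not called. The calls of Bpgm, Slc2a4, Slc2a10, Rpia, Pdp2, Pdhx, Ogdh, Dlst and Sdhc were each lost when single arrays were left out.

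**Figure D5:**
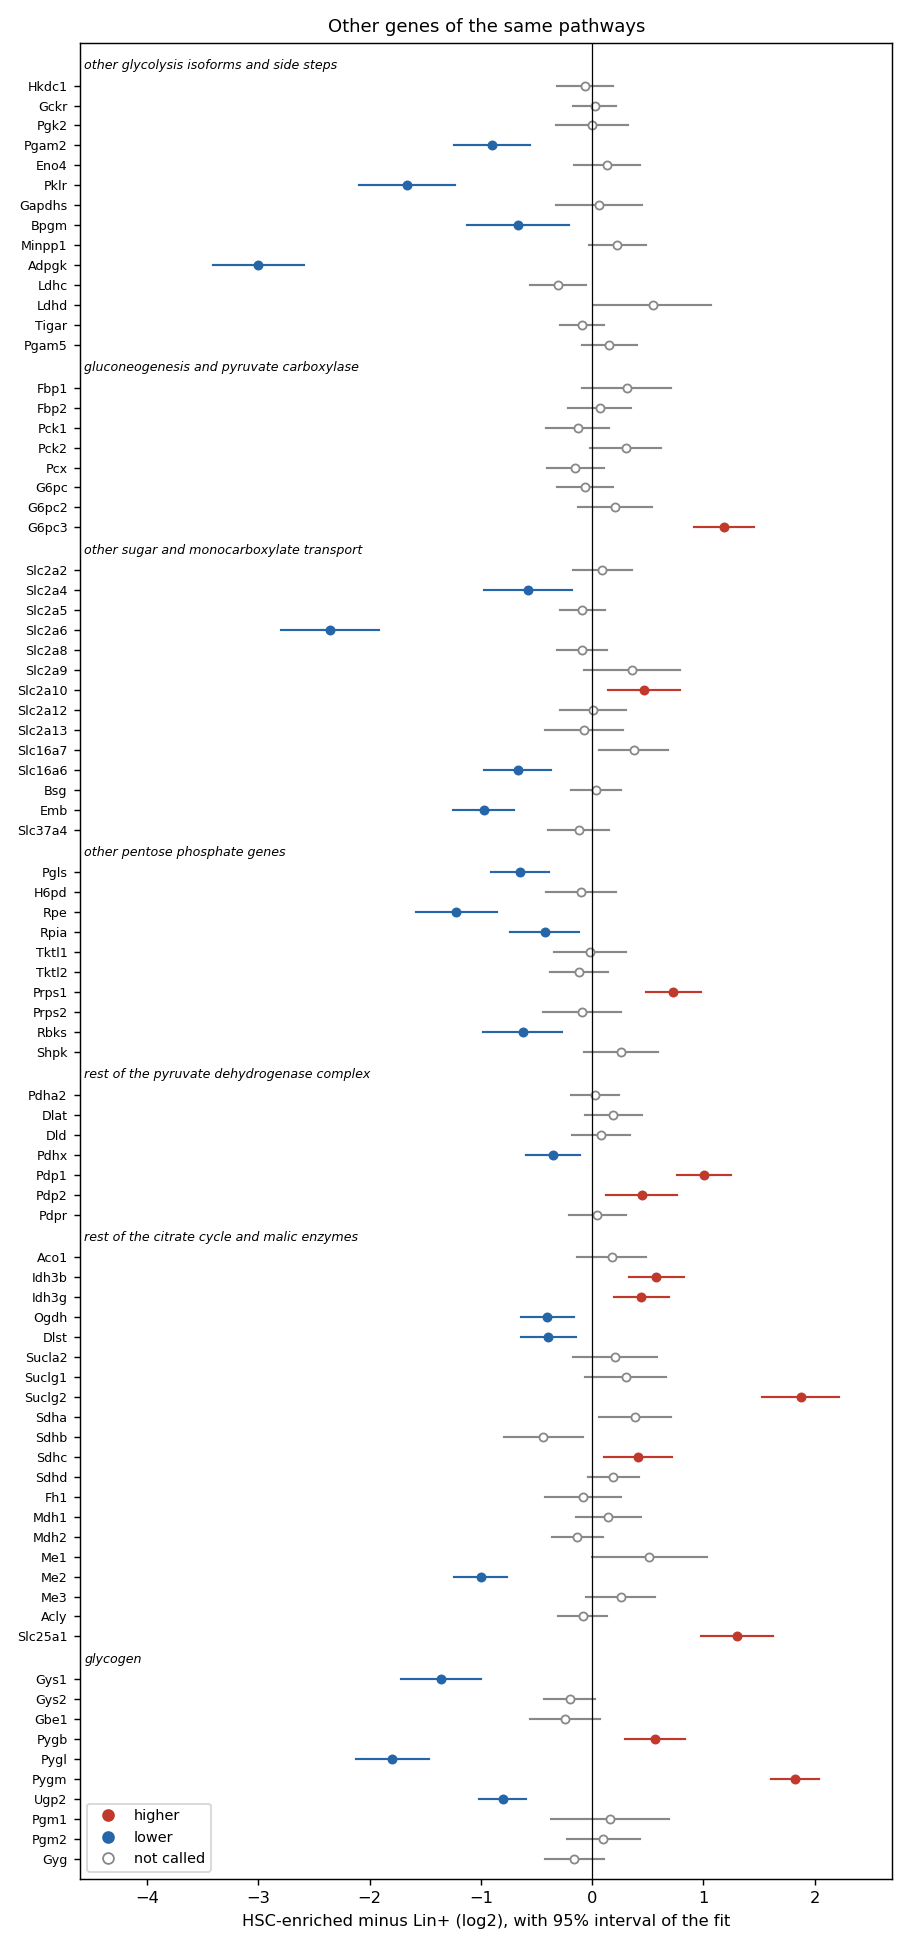
Difference between HSC-enriched and Lin+ cells (log2, x axis) for 83 measured genes of the same pathways outside the list, with the 95% interval of limma's fit. Filled points were called, 12 higher in red and 19 lower in blue, from Adpgk at -3.0 to Suclg2 at 1.87.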

How the data were processed

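Levels were the log2 expression values that the authors deposited, 1 per probe set and array. Per the submitters' processing notes they were made with RMA in Partek; for versions, genome build and probe set definition, no source used here gives a value. Array medians lay between 5.22 and 5.33. Of 24973 probe sets, 24015 had 1 symbol in the platform annotation and 958 none; 4 repeats of a symbol were left out. The 24011 genes were fitted unfiltered with limma 3.58.1 in R 4.3.3 (lmFit and eBayes, 2 groups of 4 arrays), and p-values were adjusted by Benjamini-Hochberg. On simulated data with 200 changed genes among 24011 for the same comparison, the fit recovered 17.9% of 1.41-fold, 79.1% of 2-fold and 93.9% of 4-fold changes, and 10 of 137 calls were unchanged genes. The data gave 6685 calls, and with more calls the adjustment is more lenient. The recovered shares therefore check the fit and do not give the recovery in the data. The number of arrays limits the precision. Levels of different probe sets were not compared, other than by the change of their ratio within an array.

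The members and lists were chosen with earlier results of these data known, as was the alternative without HSC-enriched replicates 3 and 4. The genes named were every measured member, the antigens of the sort and, per list of other pathway genes, the called genes that rose or fell furthest (at most 2 each way) and the uncalled gene with the highest mean. The other called pathway genes and the promoter windows were added after their values were seen. The alternatives were other normalizations, filters on low values, variance models, array weights, a replicate block and arrays left out. A comparison of isoform proteins was not run.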

Additional observations from a re-analysis of the deposited data

Results flagged for a closer look

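Of 216 groups of 4 arrays looked at, 9 held 1 array that stood apart from the other 3 beyond Dixon's 95% critical value, and chance alone gives about 1 in 20. Among the members, HSC-enriched replicate 2 was low for Aldoc (6.785, the nearest array at 7.232), replicate 1 was high for Pdk2 (7.799, nearest 7.541) and replicate 3 was low for Pdk3 (8.592, nearest 8.936). Each of these arrays still lay above all Lin+ arrays. Among the other genes, 1 HSC-enriched array stood apart for G6pc3 (8.853, nearest 9.182) and for Slamf1 (7.39, nearest 7.113). Ogdh had 1 such array in each group, at 8.774 on Lin+ (nearest 8.612) and 8.453 on HSC-enriched arrays (nearest 8.193). The B cell marker mean of HSC-enriched replicate 3 was 6.272 (nearest 4.904), and the endothelial marker mean of 1 Lin+ array was 5.806 (nearest 5.628).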

How the results depend on the processing

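Of the 23 called members, 20 kept their call in each alternative in which they were tested (15 for Pdk4, otherwise 16), and none of the 36 reversed a call. Slc2a1 lost its call in 10 alternatives, among them array weights (adjusted p = 0.057), Pfkfb3 in 8, among them median centring (0.052), and Tkt in 1. With 1 array left out, 12 to 13 members were higher and 9 to 10 lower, the median member difference was -0.01 to 0.10, and 13 to 14 isoform pairs did not overlap. These fits had 3233 to 3640 of all genes called higher and 2688 to 2933 of all genes called lower, and among the other pathway genes 9 to 13 higher and 14 to 19 lower. Of the 31 other pathway genes called, 21 kept their call throughout. Calls were lost without 1 HSC-enriched or Lin+ replicate for Slc2a10 (HSC-enriched 1, 3, 4; Lin+ 2, 3, 4), Pdp2 (1, 3, 4; 1, 2, 3), Pdhx (1 to 4; 2, 3), Ogdh (2; no Lin+), Bpgm (1, 2, 4; 2, 3, 4), Slc2a4 (1, 2, 3; 2, 3, 4), Rpia (2, 4; 2, 3, 4), Dlst (1, 3; 2, 3) and Sdhc (1, 2, 3; 1, 2, 4), with adjusted p up to 0.12, and for Rbks without HSC-enriched replicates 3 and 4. The filters left 34 and 33 members to test. A fit with the replicate number as a block called 3379 genes higher and 2743 lower, and 12 and 10 members, Slc2a1 being lost (0.072). Same-numbered samples did not deviate together (r = -0.152, 0.0587, 0.0258 and -0.102 for replicates 1 to 4), and only replicates 2 and 3 correlated best with their own number. This gave no clear sign that the numbers pair the samples, but such a check cannot exclude pairing. Without HSC-enriched replicates 3 and 4, the Hk1 to Hk3 ratio changed by 3.37. Small differences that were not called may exist, and levels near background cannot show a fall. How often small differences are missed here was not measured, since the simulation held far fewer changed genes than the data had calls.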
